A study of Mus musculus with 6 samples.

Results

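The genes of the major histocompatibility complex (MHC) and of antigen presentation were followed in mouse liver after a diet without choline and folic acid. The members were every array probe, control spots aside, whose gene name in the files begins with H2-, the mouse MHC prefix, or is B2m, Cd74, Tap1, Tap2, Tapbp, Ciita, Psmb8, Psmb9, Psmb10, Cd1d1, Cd80 or Cd86. This gave 72 of the 41174 probes and 47 of the 27670 gene names on the array. No probe carries the name Ciita, the class II transactivator, which the files list under its older name C2ta, so its values are given separately. Livers came from male C57BL/6J mice, an inbred strain, on the control diet (3 arrays) or the choline- and folate-deficient (CFD) diet (3 arrays), with no transgene or other treatment named in the labels. The mice were 8 weeks old at the start, were fed for 12 weeks and were 20 weeks old at the end. Per the labels' protocols the CFD diet had 0.17% methionine and the control diet 0.4%. The control diet also held folic acid at 2 mg/kg and choline bitartrate at 0.3%. Whether the arrays of a group stand for different mice is not stated in the labels, and the p-values therefore speak for the scatter among these arrays, some of which may be technical. Total liver RNA was labelled with Cy3, and each array gave an intensity per probe. Signals are printed as log2 of the processed signal minus the array's 75th percentile, so 0 is the 75th percentile of that array.

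MHC class I molecules are displayed by most nucleated cells and carry peptides cut from proteins of the cell itself. Proteasomes make the peptides, the TAP transporter moves them into the endoplasmic reticulum, and tapasin helps load them onto a heavy chain paired with beta-2-microglobulin. MHC class II molecules are made mainly by macrophages, dendritic cells and B cells and carry peptides from material taken up and digested in endosomes. The invariant chain fills the class II groove until cathepsins trim it and H2-DM exchanges the remaining fragment for a peptide. In liver, hepatocytes display class I, and Kupffer cells, dendritic cells and sinusoidal endothelial cells are among the cells that display class II.

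Upstream sequences are shown for the 4 class I genes and 5 class II genes whose results are contrasted below, to set the letters that recur within each class beside each other. The sequences are RefSeq's, build GRCm38.p6, and each ends before the transcription start. Promoters of 34 of the 47 member genes were searched, and a member left out need not lack a promoter in RefSeq. Where several starts were listed, the first was taken. Capitals mark 4 motifs, searched on both strands and found here without overlapping each other: GTTTCACTT, the core of the interferon-response element of class I promoters, GGGGATTCCCC, the NF-kB site of class I enhancer A as H2-K1 has it, TGATGANG, letters of the X box, and ATTGG, the inverted CCAAT of the Y box. The windows lie at chr17:34000373-34000492 (minus strand), chr17:35262914-35263033, chr17:35469909-35470028 and chr17:37270109-37270228 (plus strand) for class I. For class II they lie at chr17:34287854-34287953 (minus strand), chr17:34305737-34305836, chr17:34153061-34153160, chr17:34145119-34145218 and chr17:34092249-34092348 (plus strand).
H2-K1: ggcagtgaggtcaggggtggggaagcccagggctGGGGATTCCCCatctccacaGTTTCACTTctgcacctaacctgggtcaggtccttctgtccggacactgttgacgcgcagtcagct
H2-D1: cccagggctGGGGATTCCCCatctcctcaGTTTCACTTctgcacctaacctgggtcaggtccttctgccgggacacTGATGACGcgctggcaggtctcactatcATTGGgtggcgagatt
H2-Q10: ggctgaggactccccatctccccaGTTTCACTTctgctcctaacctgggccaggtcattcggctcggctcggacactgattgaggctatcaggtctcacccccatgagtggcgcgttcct
H2-M3: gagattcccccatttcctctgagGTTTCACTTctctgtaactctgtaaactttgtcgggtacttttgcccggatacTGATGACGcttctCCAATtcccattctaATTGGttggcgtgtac
H2-Aa: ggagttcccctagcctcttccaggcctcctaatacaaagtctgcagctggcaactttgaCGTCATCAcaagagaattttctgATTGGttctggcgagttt
H2-Eb1: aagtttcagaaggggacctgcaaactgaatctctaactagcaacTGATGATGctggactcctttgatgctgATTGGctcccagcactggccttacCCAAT
H2-DMb1: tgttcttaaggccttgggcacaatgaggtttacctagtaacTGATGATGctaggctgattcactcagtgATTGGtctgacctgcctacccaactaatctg
H2-DMb2: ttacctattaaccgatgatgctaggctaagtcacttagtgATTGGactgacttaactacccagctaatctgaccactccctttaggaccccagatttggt
H2-Oa: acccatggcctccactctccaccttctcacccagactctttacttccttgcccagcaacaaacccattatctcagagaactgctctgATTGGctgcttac

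Over the whole 300-base promoters, which run from 250 bases before the start to 50 after it, GTTTCACTT occurred in 7 of 18 class I heavy chain genes (H2-K1, H2-D1, H2-M3, H2-Q7, H2-Q10, H2-T3 and H2-T22) and in 0 of 7 class II genes. It occurred in 0.399% of all 32851 promoters. GGGGATTCCCC was found in H2-K1 and H2-D1 alone among these promoters, and in 0.0304% of all promoters. TGATGANG occurred in 3 of 18 class I genes and 3 of 7 class II genes, against 4.03% of all promoters, and ATTGG in 16 of 18 and 6 of 7, against 37.4%. These matches describe letters and were not tested as binding sites. Genes with the interferon-response core included H2-K1, which was called lower on the CFD diet, H2-M3, which was called higher, and H2-D1 and H2-Q10, which were not called.

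Of the 47 member genes, 33 were bright enough to test and 14 were not. Testing required a probe well above background on each of the 3 arrays of at least 1 diet, and the tested probe with the highest mean stood for the gene. With limma and Benjamini-Hochberg adjustment over all 15909 tested genes, 5 members were called higher and 9 lower at an adjusted p below 0.05, and 19 were not called. The 14 called members make 42.4% of those tested, below the background of 51.1% of all tested genes called in either direction, so the members as a set did not stand out by the number of calls. Over all tested genes 23.7% were called higher and 27.4% lower. The number of class I chains called lower moved with the scaling. It was 6 in the main fit, 0 with quantile normalization, 8 after scaling to the array median and 7 with normexp background correction. In each of these fits 1 class I chain was called higher. The member split of 5 higher and 9 lower became 4 and 1 with quantile normalization, 1 and 11 after scaling to the array median and 3 and 10 with normexp background correction.

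Between 21689 and 29044 probes were well above background on an array, and no spot was saturated. Control arrays correlated at 0.990 to 0.993 across genes, CFD diet arrays at 0.982 to 0.990, and arrays of different diets at 0.913 to 0.951. The tissue label held for hepatocyte markers, all 7 tested of 7 on the array, albumin among them. Livers are numbered here by array, and the arrays of a group need not be different mice. CFD diet liver 3 stood apart from the other CFD diet livers in interferon-regulated genes. Igtp, an interferon-induced GTPase, read 4.52, 4.24 and 4.47 in the control livers and 3.11, 3.58 and 6.86 in CFD diet livers 1 to 3. Gbp2, a guanylate-binding protein induced by interferon, read 0.37, 0.07 and -0.15 against 0.20, 0.15 and 2.27. These genes were picked for description after their values were seen. Results on class II and on peptide loading are therefore given with that liver and, for most of them, also without it. Each slide held a control and a CFD diet liver of the same number, so the difference within each slide is given as well.

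**Figure D1:**
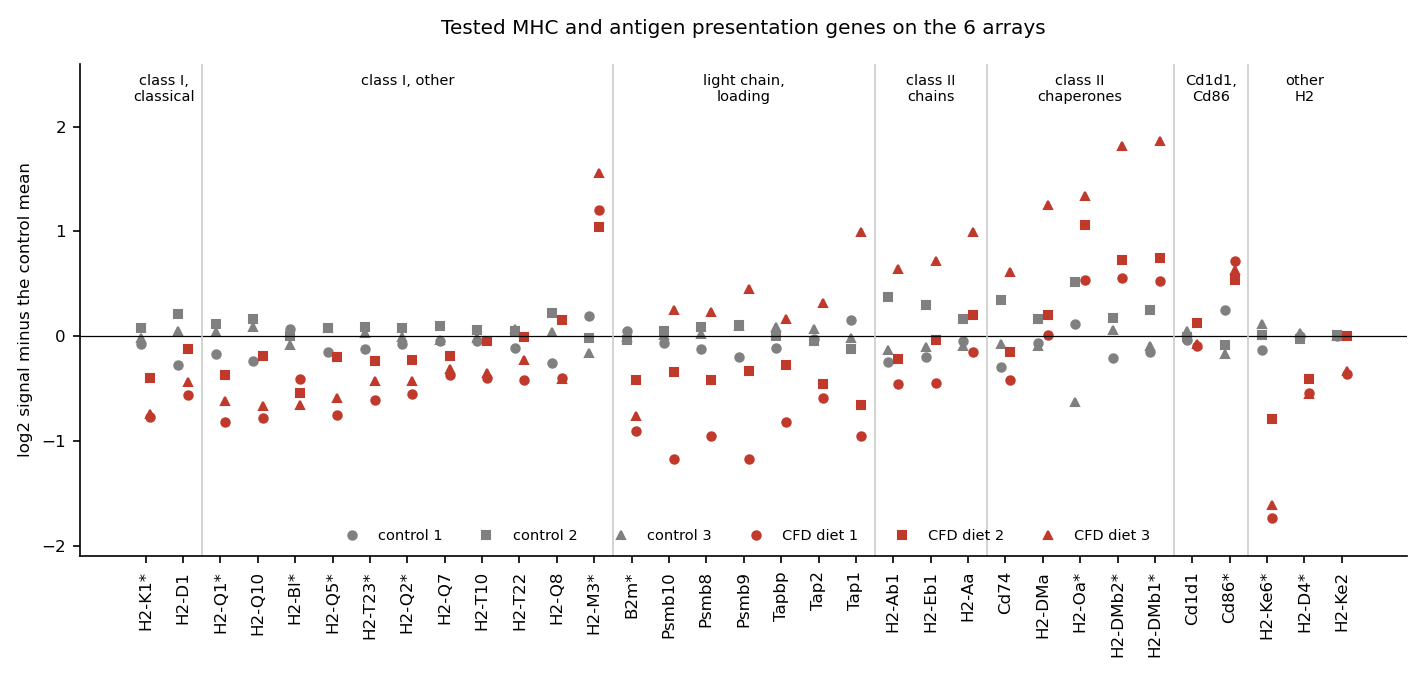
Log2 signal of each of the 33 tested member genes on the 6 arrays, minus that gene's control mean (vertical axis, log2 units). Grey symbols are control livers and red symbols CFD diet livers 1 to 3, and asterisks mark the 14 genes called by limma. CFD diet liver 3 lies above all control livers in 8 of 8 class II genes. The downward class I calls depend on the scaling and number 0 with quantile normalization.

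In the main scaling, though not with quantile normalization, the class I heavy chains had lower mean signals on the CFD diet, with H2-M3 as the exception. Of 24 class I heavy chain genes on the array, with H2-D4 kept apart and described below, 13 were tested, 6 were called lower, 1 higher and 6 were not called. The share called, 53.8%, was near the 51.1% of all tested genes. The median log2 fold change was -0.41, against -0.11 over all tested genes, and the medians within slides 1 to 3 were -0.48, -0.31 and -0.45. With quantile normalization the class I median was 0.09 and none of the class I chains was called lower.

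H2-K1 encodes the classical class I chain K, which presents peptides to CD8 T cells, and its probe lies at chr17:32074445-32074504 (build mm7). It read 8.04, 8.19 and 8.09 in the control livers and 7.34, 7.71 and 7.37 in the CFD diet livers. The groups did not overlap, and the log2 fold change was -0.63 ± 0.14 (SE, n = 3 per group; limma adjusted p = 0.0101). All 3 of its tested probes were called lower in the fit of single probes, by -0.63 to -0.78. With quantile normalization the value was -0.08 (limma adjusted p = 0.552). The other classical chain, H2-D1, read 7.24, 7.72 and 7.56 in the control livers and 6.95, 7.39 and 7.07 in the CFD diet livers. Its groups overlapped, and its difference of -0.37 ± 0.18 was not called (limma adjusted p = 0.127).

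Among the other class I chains, the ones called lower were H2-Q1, H2-Q2, H2-Q5, H2-T23 and H2-Bl. H2-Q1 read 7.17, 7.46 and 7.38 in the control livers and 6.52, 6.97 and 6.72 in the CFD diet livers, a change of -0.60 ± 0.16 (limma adjusted p = 0.0194). The H2-Q5 values were 8.00, 8.23 and 8.23 against 7.40, 7.95 and 7.56, a change of -0.52 ± 0.17 (limma adjusted p = 0.0433). On the probes that stood for these genes, every CFD diet liver lay below every control liver, with CFD diet liver 1 lowest. H2-T23 encodes Qa-1, which shows signal peptides of other class I chains to natural killer cell receptors. It read 7.53, 7.74 and 7.68 against 7.04, 7.41 and 7.22, a change of -0.42 ± 0.14 (limma adjusted p = 0.0414). For H2-Q2 the signals were 7.46, 7.61 and 7.52 against 6.98, 7.30 and 7.10, a change of -0.41 ± 0.13 (limma adjusted p = 0.0371), which was not called with the slide as a block (limma adjusted p = 0.0544). All these falls were about the size of the shift seen in other probes of high signal. Of the 15 alternative fits of genes, 8 kept the call of H2-Q1, 7 that of H2-Q5, 7 that of H2-T23 and 6 that of H2-Q2.

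H2-Bl read 2.83, 2.76 and 2.68 in the control livers and 2.35, 2.22 and 2.10 in the CFD diet livers on the probe that stood for it, a change of -0.53 ± 0.12 (limma adjusted p = 0.011). Its probes disagreed. The other 2 tested probes of that name were called higher in the fit of single probes, by 1.23 ± 0.31 (limma adjusted p = 0.0167) and 0.81 ± 0.21 (limma adjusted p = 0.0186), so the direction of H2-Bl is uncertain. The probe sequences were not used here, and how far probes for near-identical class I chains read each other's transcripts was not tested.

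The class I chains not called were H2-D1, H2-Q7, H2-Q8, H2-Q10, H2-T10 and H2-T22, with changes from -0.55 to -0.22. H2-Q10, a chain that liver secretes, was nearest to the threshold at -0.55 ± 0.20 (limma adjusted p = 0.0545). It read 8.23, 8.63 and 8.56 in the control livers and 7.69, 8.28 and 7.80 in the CFD diet livers, where CFD diet liver 2 overlapped the controls. It was called with the slide as a block (limma adjusted p = 0.0351), and its other 3 probes were called lower in the fit of single probes, by -0.61 to -0.73.

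H2-M3 moved in the opposite direction. It encodes a nonclassical chain that presents peptides starting with N-formyl methionine, as bacteria and mitochondria make, and its probe lies at chr17:35427134-35427193 (build mm7). The control livers read -0.63, -0.84 and -0.98 and the CFD diet livers 0.38, 0.22 and 0.74. The groups were well apart, with CFD diet liver 3 highest, and the rise was 2.40-fold, or 1.27 ± 0.18 on the log2 scale (limma adjusted p = 0.0019). Its second probe also rose, by 1.19 ± 0.21 (limma adjusted p = 0.00444 in the fit of single probes). The call held under all 15 alternative fits of genes, quantile normalization included, with log2 fold changes from 1.06 to 1.38.

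The falls of the class I chains accompanied a shift of high-signal probes in general. Of the 961 tested genes with a mean log2 signal above 5, a limit chosen after seeing the data, 45.1% were called lower, and their median log2 fold change was -0.44. The 9 class I chains above that limit had a median of -0.42, and 5 of them were called lower. With quantile normalization, which gives all arrays the same distribution, the median of those 961 genes was 0.02 and that of the 9 chains was 0.09, with 0 chains called. After scaling to the array median the medians were -0.65 and -0.63, and the median of all tested genes moved from -0.11 to -0.31. Relative to all tested genes, the 13 class I chains lay at -0.30 in the main scaling, -0.30 with median scaling and 0.12 with quantile normalization. Leaving out a library also moved the count of class I chains called lower from 6, to 3 without control liver 1, 2 without control liver 2, 2 without control liver 3, 2 without CFD diet liver 1, 9 without CFD diet liver 2 and 2 without CFD diet liver 3.

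**Figure D2:**
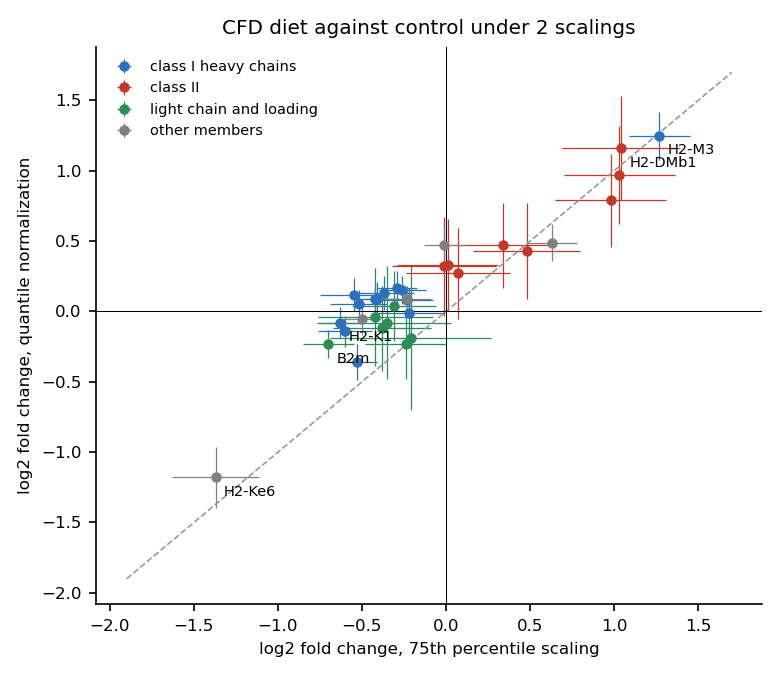
Log2 fold change (CFD diet minus control) of the 33 tested member genes with scaling to the 75th percentile (horizontal axis) and with quantile normalization (vertical axis); bars are standard errors from limma and the dashed line marks equal values. H2-M3 and H2-Ke6 stay near the line, whereas the median of the class I chains moves from -0.41 to 0.09.

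The light chain of class I fell, and the peptide-loading genes were not called. B2m encodes beta-2-microglobulin, the invariant partner of class I heavy chains, and its probe lies at chr2:121893518-121893577 (build mm7). It read 6.92, 6.83 and 6.86 in the control livers and 5.97, 6.45 and 6.11 in the CFD diet livers. Every CFD diet liver lay below every control liver, and the log2 fold change was -0.70 ± 0.15 (limma adjusted p = 0.00935). With quantile normalization it was -0.23 (limma adjusted p = 0.0943), and the call held in the other 14 alternative fits of genes. Of its 3 probes, 2 were called lower in the fit of single probes and the dimmest was not, at 0.20 ± 0.19 (limma adjusted p = 0.417).

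The TAP transporter, tapasin and the immunoproteasome subunits split the CFD diet livers. Tap1, a subunit of the peptide transporter, read 0.54, 0.27 and 0.37 in the control livers and -0.56, -0.27 and 1.38 in CFD diet livers 1 to 3. Tap2, its partner subunit, read 0.36, 0.34 and 0.46 against -0.20, -0.07 and 0.71. In both genes CFD diet livers 1 and 2 lay below all controls and CFD diet liver 3 above them. Tapbp, which encodes tapasin, read 4.33, 4.44 and 4.53 against 3.62, 4.17 and 4.60. The 3 immunoproteasome subunits, which replace the constitutive catalytic subunits under interferon, behaved alike in order. Psmb8 read 3.39, 3.60 and 3.53 against 2.56, 3.09 and 3.74. Psmb9 read 3.52, 3.83 and 3.82 against 2.55, 3.39 and 4.17. Psmb10 read 4.91, 5.02 and 4.98 against 3.80, 4.63 and 5.22.

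For these 6 genes the log2 fold changes lay between -0.42 and -0.21, none was called, and limma's adjusted p ran from 0.304 (Psmb8) to 0.74 (Tap1). CFD diet livers 1 and 2 lay below all controls in all 7 light chain and loading genes, and CFD diet liver 3 above all controls in 6 of 7, the exception being B2m. The medians within slides 1 to 3 were -0.95, -0.41 and 0.25. The standard deviation among the CFD diet livers was 5.36 times that among the controls, as the median over the 7 genes, against 1.5 times for the class I chains. Without CFD diet liver 1, the median of the 7 genes changed from -0.35 to -0.05, above the -0.10 of all tested genes. Without CFD diet liver 3, it changed to -0.68, and 4 of the 7 genes were called lower in place of 1. Those added were Tap1 at -0.80 (limma adjusted p = 0.0163), Tap2 at -0.52 (limma adjusted p = 0.0311) and Psmb8 at -0.68 (limma adjusted p = 0.0436).

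The class II alpha and beta chains were not called in any direction. H2-Ab1, the beta chain of the I-A molecule, read 3.80, 4.42 and 3.92 in the control livers and 3.59, 3.83 and 4.69 in the CFD diet livers, a difference of -0.01 ± 0.31 (limma adjusted p = 0.98). H2-Aa, the I-A alpha chain, read 1.57, 1.78 and 1.53 against 1.47, 1.82 and 2.61, a difference of 0.34 ± 0.29 (limma adjusted p = 0.351). CFD diet liver 3 was above all controls in both, and CFD diet liver 1 was below them. H2-Eb1, the beta chain of I-E, read 2.43, 2.93 and 2.53 against 2.18, 2.59 and 3.35, a difference of 0.07 ± 0.31 (limma adjusted p = 0.854). H2-Ea, the I-E alpha chain, was on no array well above background, with signals from -8.04 to -6.46 in the control livers and from -8.32 to -6.93 in the CFD diet livers. C57BL/6 mice are known not to make this chain. Cd74, the invariant chain, had the same order as the chains, with 3.54, 4.18 and 3.76 against 3.41, 3.68 and 4.44 and a difference of 0.01 ± 0.30 (limma adjusted p = 0.974). Slides 1 and 2 leave out CFD diet liver 3. Within them H2-Ab1 differed by -0.21 and -0.59, and H2-Eb1 by -0.25 and -0.34. Cd74 differed by -0.14 and -0.50, and H2-Aa by -0.10 and 0.04. None of H2-Ab1, H2-Aa, H2-Eb1 and Cd74 was called in the 15 alternative fits of genes.

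The calls of class II lay with the peptide-exchange genes. They were 3 of 8 tested genes, a share of 37.5%, below the 51.1% of all tested genes. H2-DMb1 and H2-DMb2 encode beta chains of H2-DM, which edits the peptides bound to class II. H2-DMb1 read 1.07, 1.47 and 1.13 in the control livers and 1.75, 1.97 and 3.08 in the CFD diet livers, a 2.06-fold rise of 1.04 ± 0.35 on the log2 scale (limma adjusted p = 0.0426). The H2-DMb2 signals were -1.43, -1.05 and -1.16 against -0.66, -0.49 and 0.59, a rise of 1.03 ± 0.33 (limma adjusted p = 0.0378). H2-Oa, a chain of H2-DO, which restrains H2-DM, read -3.44, -3.04 and -4.19 against -3.02, -2.50 and -2.22, a rise of 0.98 ± 0.33 (limma adjusted p = 0.0456). In all 3 genes every CFD diet liver was above every control liver, with CFD diet liver 3 highest. Their partners were not called or not tested. H2-DMa, the alpha chain of H2-DM, read -0.84, -0.62 and -0.87 against -0.77, -0.58 and 0.47, a difference of 0.48 ± 0.32 (limma adjusted p = 0.244), and the difference between the changes of H2-DMa and H2-DMb1 was not tested. H2-Ob, the partner of H2-Oa, was well above background on 1 control and 1 CFD diet array and was not tested, with signals of -6.33, -4.11 and -5.95 against -5.13, -5.64 and -5.58.

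These 3 class II calls were close to the threshold. With the slide as a block, only H2-DMb2 was called (limma adjusted p = 0.0342), with H2-DMb1 at 0.0523 and H2-Oa at 0.0732. The H2-DMb1 call was lost without control liver 1 (limma adjusted p = 0.109), control liver 2 (0.0625), control liver 3 (0.108) or CFD diet liver 2 (0.0507). That of H2-DMb2 was lost without control liver 1 (limma adjusted p = 0.104), 2 (0.0665) or 3 (0.0834). That of H2-Oa was lost without control liver 1 (limma adjusted p = 0.0827), control liver 3 (0.109), CFD diet liver 2 (0.101) or CFD diet liver 3 (0.138). Without CFD diet liver 3 the H2-DMb1 and H2-DMb2 rises were 0.64 and 0.64 and were still called (limma adjusted p = 0.0409 and 0.0331). With normexp background correction the H2-Oa change was 0.45 (limma adjusted p = 0.156). With quantile normalization H2-Oa was at 0.79 (limma adjusted p = 0.0833) and H2-DMb2 at 0.97 (limma adjusted p = 0.0537), neither of them called. After scaling to the array median or without the filter on dim probes, 0 class II genes were called, with these 3 changes in the same direction.

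Class I and class II differed in how the livers were ordered. Class II had a median log2 fold change of 0.41 over 8 tested of 10 genes, against -0.41 for class I. CFD diet liver 3 was the highest of the CFD diet livers and above all controls in 8 of 8 class II genes, but in 1 of 13 class I chains, H2-M3. Within slides 1 to 3 the class II medians were -0.02, 0.04 and 1.21, and class II lay above class I by 0.47, 0.35 and 1.67. Class II lay above class I in every scaling tried, with 0.45 against 0.09 under quantile normalization. Without CFD diet liver 3 the class II median was 0.06 and the class I median was -0.40. Within slides 1 and 2 the class II alpha and beta chains had medians of -0.21 and -0.34. Those of the class II chaperones and invariant chain were 0.42 and 0.49. No p-value is given for these class medians, since the members were chosen with results known.

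**Figure D3:**
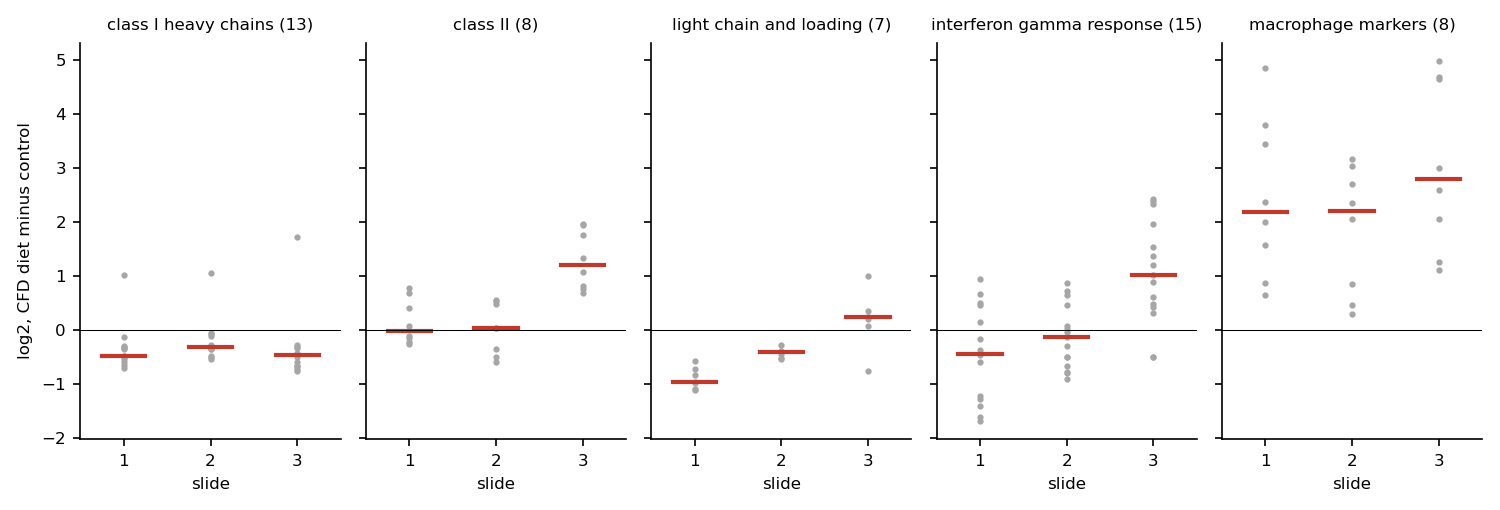
CFD diet minus control within each of the 3 slides (log2 units), with a grey point per tested gene and a red line at the median; 3 of the 8 macrophage markers passed the filter only through the CFD diet group. From slide 1 to slide 3, class II has medians of -0.02, 0.04 and 1.21 and interferon gamma response genes -0.44, -0.13 and 1.03, while class I chains stay at -0.48, -0.31 and -0.45 in this scaling; the class I median over all arrays turns to 0.09 with quantile normalization.

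Ciita, the master activator of class II genes, read -2.33, -1.09 and -2.30 in the control livers and -1.50, -2.33 and -0.84 in the CFD diet livers on the probe listed as C2ta. The groups overlapped and the difference of 0.35 ± 0.47 was not called (limma adjusted p = 0.554). H2-Eb2, another class II beta chain, is listed under a clone name and was on no array well above background. Cd1d1, which presents lipids to natural killer T cells, read 6.60, 6.63 and 6.69 against 6.55, 6.77 and 6.57, a difference of -0.01 ± 0.12 (limma adjusted p = 0.951). With quantile normalization Cd1d1 was called higher, at 0.47 (limma adjusted p = 0.0152).

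The costimulatory ligand Cd86, which engages CD28 on T cells, rose. It read -2.33, -2.66 and -2.75 in the control livers and -1.86, -2.04 and -1.95 in the CFD diet livers, without overlap, a change of 0.63 ± 0.15 (limma adjusted p = 0.0126). The call was lost without control liver 3 (0.54, limma adjusted p = 0.0537), with normexp background correction (0.38, limma adjusted p = 0.0607), after scaling to the array median (0.42, limma adjusted p = 0.0522) and without the filter on dim probes (0.63, limma adjusted p = 0.0572). Cd80, the other ligand of CD28, was well above background on 0 control arrays and 1 CFD diet array and was not tested. Its signals were -7.63, -6.98 and -6.64 against -5.31, -5.79 and -5.59.

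Of the H2 names outside these groups, H2-D4 is a class I sequence of the D region. It was not counted among the 24 class I heavy chain genes, nor in the class I calls and medians. H2-D4 read 5.73, 5.70 and 5.76 in the control livers and 5.19, 5.32 and 5.18 in the CFD diet livers, a change of -0.50 ± 0.11 (limma adjusted p = 0.00987) that shrank to -0.05 with quantile normalization (limma adjusted p = 0.73). The remaining names belong to genes within the MHC region that are not antigen-presenting chains. H2-Ke6, also called Hsd17b8, encodes a mitochondrial ketoreductase subunit of fatty acid synthesis. It read 3.42, 3.56 and 3.67 against 1.82, 2.76 and 1.94, and its level was 2.59-fold higher in control livers, a log2 fold change of -1.37 ± 0.26 (limma adjusted p = 0.00536). CFD diet liver 2 was the least changed, and the call held under all 15 alternative fits of genes, from -1.67 to -1.18. H2-Ke2, now named Pfdn6, encodes a prefoldin subunit and was not called, at -0.23 ± 0.14 (limma adjusted p = 0.192).

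The untested members were the class I genes H2-M1, H2-M9, H2-M11, H2-T3, H2-T24 and 6 H2-M10 genes, the class II genes H2-Ea and H2-Ob, and Cd80. Of these, H2-T24 was well above background on 2 control and 2 CFD diet arrays and H2-M10.2 on 1 of each. The other 9 class I genes were not well above background on any array, so no difference can be read from them.

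Of 17 other genes of the class I pathway tested, 1 was called higher and 7 lower, and the median was -0.19. The share called, 47.1%, was near the 51.1% of all tested genes, and with quantile normalization 3 were called higher and 6 lower. Pdia3, a disulfide isomerase of the loading complex, changed by -0.84 ± 0.17 (limma adjusted p = 0.00732), and Calr, the chaperone calreticulin, by -0.82 ± 0.17 (limma adjusted p = 0.00747). Mr1, which presents vitamin metabolites to MAIT cells, rose by 0.47 ± 0.12 (limma adjusted p = 0.0183). Of the class II pathway, 10 of 17 tested genes were called higher and 2 lower, with a median of 0.88 and a share called of 70.6%. Ctss, the cathepsin that trims the invariant chain, read 4.40, 4.53 and 4.14 in the control livers and 6.72, 6.74 and 7.31 in the CFD diet livers, a rise of 2.57 ± 0.20 (limma adjusted p = 0.000234). Spi1, the myeloid transcription factor PU.1, had a fitted rise of 1.52 ± 0.24 (limma adjusted p = 0.00319), but was well above background on only 2 control arrays and passed the filter through the CFD diet group. With probes well above background on all 6 arrays, 9 of 16 were called higher and 2 lower. Nfyb, a subunit of the factor that binds the Y box, fell by 1.29 on the log2 scale (limma adjusted p = 0.00281), and Rfxap, of the X-box complex, fell by 0.41 (limma adjusted p = 0.0332), a call lost with the slide as a block (limma adjusted p = 0.0601). Of the other subunits of the Y-box factor, Nfya was called higher at 0.88 ± 0.17 (limma adjusted p = 0.00587) and Nfyc was not called at 0.12 ± 0.11 (limma adjusted p = 0.379). All 6 tested costimulation and T cell contact genes outside the members were called higher, with Cd48 at 1.99 ± 0.17 (limma adjusted p = 0.000296) and Icosl at 1.76 ± 0.29 (limma adjusted p = 0.0035), and 7 were not tested. Icosl passed the filter only through the CFD diet group, and with probes well above background on all 6 arrays the count was 5 of 5.

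Interferon gamma response genes were called higher in 3 and lower in 2 of 15 tested, with a median of 0.24. The share called, 33.3%, was below the 51.1% of all tested genes. Cxcl10, a chemokine for activated T cells, rose by 1.17 ± 0.28 (limma adjusted p = 0.0131), and Ifngr1, the ligand-binding receptor chain, rose by 1.02 ± 0.16 (limma adjusted p = 0.00276). Cxcl9, a related chemokine, fell by 1.00 (limma adjusted p = 0.0196) and Ifng fell by 0.75 (limma adjusted p = 0.0479). Ifng was dim, at -4.30, -4.08 and -4.37 in the control livers and -5.57, -4.57 and -4.86 in the CFD diet livers. The lowest signal well above background was -7.188 to -4.784, depending on the array. Only 1 of the 2 Ifng probes was tested. With normexp background correction 1 gene of the list was called lower in place of 2. The medians within slides 1 to 3 were -0.44, -0.13 and 1.03, the same order as for class II and for peptide loading. Its part in those results was not tested.

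Macrophage markers and some dendritic cell markers, of cells that display class II, moved with the diet. Of 8 macrophage markers, 5 were well above background on all 6 arrays, and these 5 were called higher, from 0.69 ± 0.17 for Csf1r to 2.58 ± 0.17 for Cd68 (limma adjusted p = 0.0142 and 0.000133). The other 3, Itgam, Cx3cr1 and Ccr2, passed the filter only through the CFD diet group and were called higher too. The list's summed signal, in multiples of each array's 75th percentile, was 78.1 to 114 in control livers and 298 to 402 in CFD diet livers. That sum was mostly Lyz2, which read 5.81, 6.28 and 5.64 against 7.81, 8.33 and 8.23. Dendritic cell markers were called higher in 5 of 7 tested, but Flt3, Clec9a and Ccr7 passed the filter only through the CFD diet group, and the count was 2 of 4, Itgax and Batf3, with probes well above background on all 6 arrays. Their summed signal was 0.997 to 1.41 against 4.67 to 8.23. Itgax, which macrophages also express, led that list at 4.77 ± 0.37 (limma adjusted p = 0.000216), Batf3 was at 1.05 ± 0.19 (limma adjusted p = 0.00488), and Xcr1 and Zbtb46 were not called at -0.39 and -0.23. Of the B cell markers Cd22 was called higher, the summed signal was 0.783 to 1.18 against 0.904 to 1.07, and Pax5, Cd79a and Blk were not tested. T cell markers were called lower in 1 of 9 tested (0 of 6 with the filter on all 6 arrays) and summed to 1.58 to 1.78 against 1.21 to 1.39, and natural killer cell markers were called higher in 1 of 3, Prf1, which passed the filter only through the CFD diet group, and summed to 0.143 to 0.212 against 0.244 to 0.308. With the filter on all 6 arrays, 0 of 1 natural killer cell marker was called. Sinusoidal endothelial markers were called lower in 4 and higher in 1 of 6, with summed signals of 42.6 to 47.3 against 27.2 to 35.5. The shares called were 100% for macrophage, 71.4% for dendritic cell, 50% for B cell and 11.1% for T cell markers. They were 33.3% for natural killer cell and 83.3% for sinusoidal endothelial markers, against 51.1% of all tested genes. In whole liver, fewer cells of a type and less RNA per cell cannot be told apart.

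Among the remaining cell types, 5 of 7 tested hepatocyte markers (71.4%) were called lower, with a median of -0.63. Over all tested genes 23.7% were called higher and 27.4% lower. Of those with a mean log2 signal above 5, 45.1% were called lower. With quantile normalization 1 hepatocyte marker was called lower. All 6 cholangiocyte markers (4 of 4 with the filter on all 6 arrays, without Epcam and Cftr) and all 6 stellate cell markers were called higher, with summed signals of 5.75 to 8.91 against 88.5 to 123 and of 71.0 to 79.3 against 159 to 183. Each sum was mostly 1 gene and does not stand for its whole list. Spp1 made most of the cholangiocyte sum, at 3.00, 2.75 and 2.38 against 6.40, 6.85 and 6.87. Dcn made most of the stellate sum, at 6.04, 6.08 and 5.89 against 7.33, 7.16 and 7.36. The part of these cell types in the class I and class II results was not tested. Of the macrophage markers well above background on all 6 arrays, Cd68 changed most and Csf1r least. Within slides 1 to 3 Cd68 was higher by 2.38, 2.36 and 3.01 and Csf1r by 0.66, 0.30 and 1.12. The class II medians were -0.02, 0.04 and 1.21. Those of the class II chaperones and invariant chain alone were 0.42, 0.49 and 1.76. How these differences relate was not tested.

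**Figure D4:**
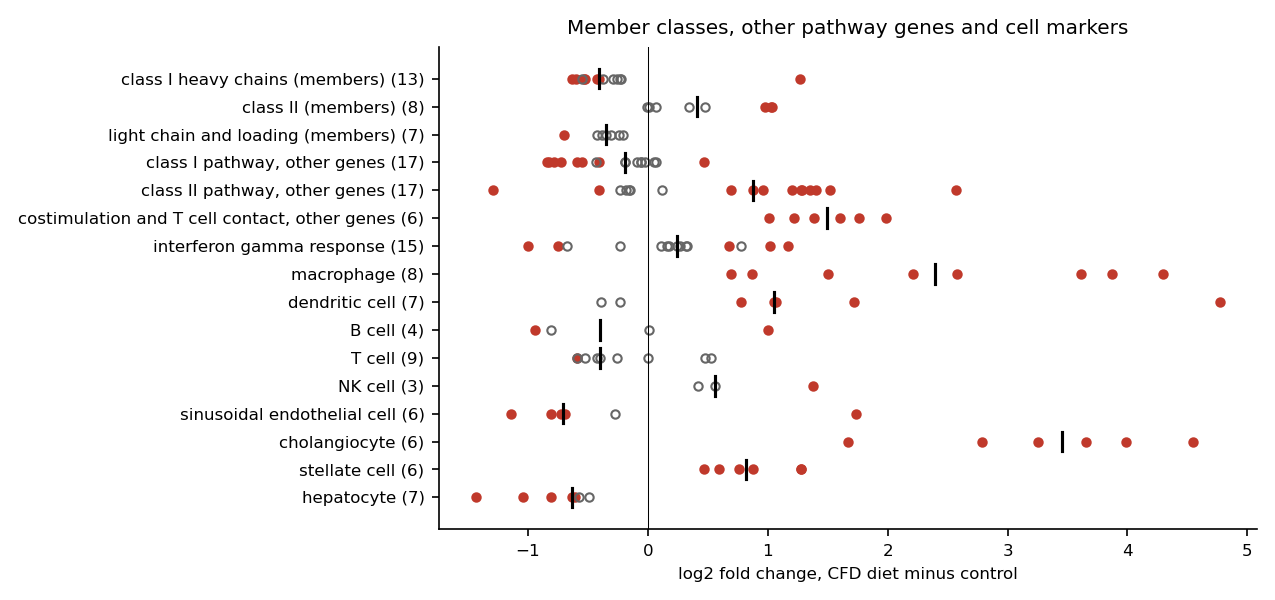
Log2 fold change (CFD diet minus control) of each tested gene, by list, with the number tested in parentheses; filled points were called by limma, open points were not, and the bar is the median, including genes that passed the filter only through the CFD diet group. The class II chains and chaperones have a median of 0.41, and the class I chains -0.41, a value that turns to 0.09 with quantile normalization.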

How the data were processed

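Liver RNA of 3 control and 3 CFD diet samples was measured on one-colour Agilent arrays, with groups taken from the labels. The deposited scanner files give an intensity per spot, background-subtracted by Feature Extraction, version 10.5.1.1 per the file headers and 10.7 per the submitters' processing notes. The deposited value table holds a linear intensity whose 75th percentile lay near 1000 on each array (999.5 to 1000.0), with column medians of 67.98, 61.49 and 67.63 (control 1 to 3) and 72.67, 73.88 and 80.59 (CFD diet 1 to 3). Every column matched, at a rank correlation of 1, the scanner file of a different replicate in the same group, so replicate numbers follow the scanner files and the table served as an alternative. Which numbering is the intended one stays unknown.

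The log2 of the deposited intensity was taken, each array's 75th percentile was subtracted, flagged outlier spots were dropped and a probe's spots were averaged. Testing kept 23482 probes and 15909 genes, 38 with a missing value on an array. Gene symbols were updated through a RefSeq table of GRCm38.p6: 22951 probes were named by accession, 6659 had a current and 3109 an older symbol, and 8455 kept the file's name. The members were chosen by the name in the file. Diets were compared with limma 3.58.1 (lmFit, eBayes; R 4.3.3) and called at an adjusted p below 0.05. On simulated data of 15871 genes for this comparison, 65% of log2 changes of 1 and 92% of log2 changes of 2 were recovered, with 7 false calls. The simulation gave both groups the scatter of the control arrays and changed only 100 genes at each size. In the data 51.1% of tested genes were called. Over the 33 tested members the standard deviation among CFD diet livers was a median of 2.5 times that among controls. The simulated rates therefore need not hold for these data. The number of arrays limits the precision.

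The members, gene lists and tests were chosen with earlier results of these data known. Values on every array are given for the class I and class II groups named in the rule and, of the other class I chains, for the 6 called ones with the largest changes; the other pathway lists are given by counts with up to 2 called changes in each direction. Alternatives changed the background correction, scaling, dim-probe filter, variance moderation, slide block, probe choice and source of values, and left out each replicate. Slides were shared by samples of the same number per the file headers, and deviations from the group means correlated at 0.174, -0.069 and -0.010 for numbers 1 to 3. Some genes of the lists are not reported here by name.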

Additional observations from a re-analysis of the deposited data

How the results depend on the processing

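Over 33 tested genes and 15 alternative fits of genes, 416 of 495 values kept their side of the threshold, 61 lost a call and 13 gained a call. Among the 416, the sign differed in 25 with no call in either fit, such as H2-D1 (0.13), H2-Q10 (0.12) and H2-Q7 (0.17) with quantile normalization. A further 5 turned with a call in 1 of the fits, Cd1d1 (0.47), H2-Q2 (0.09), H2-Q5 (0.05) and H2-T23 (0.09) with quantile normalization and H2-Bl (0.50) with the mean of a gene's probes. Quantile normalization left 1 member and 0 class I chains called lower, 1 class II gene called higher and a class I median of 0.09. Scaling to the array median left 1 member and 0 class II genes called higher, with a class I median of -0.61. Without the filter on dim probes, 2 members were called higher and 3 lower, with 1 class I chain lower, 0 class II genes higher and a class I median of -0.54. Normexp left 3 members higher, and trend and robust moderation 3 class I chains lower. The replicate block (slide) left 3 members and 1 class II gene higher; it lost H2-DMb1, H2-Oa and H2-Q2, gained H2-Q10 and changed no other member's call. Counting each probe on its own gave 10 member probes higher and 16 lower, 4 and 12 of them class I. Leaving out each replicate gave 1 to 5 members higher, 5 to 13 lower, 2 to 9 class I chains lower, 0 to 3 class II genes higher, and medians of -0.50 to -0.33 for class I and 0.06 to 0.66 for class II. Causes were not tested. The 3 arrays per group limit every value, and dim members had no measured level.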
